A study of Mus musculus with 12 samples.

Results

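RGS proteins were followed at the transcript level in mouse livers with lowered Rgs16 or G0s2, taking 10 genes of the family by name: Rgs16, Rgs1, Rgs2, Rgs3, Rgs4, Rgs5, Rgs10, Rgs12, Rgs14 and Rgs19. They are 10 of the 55536 genes listed for every sample. The 10 were chosen with earlier results of these data known, and all 10 passed the filter on low counts in each comparison. The other RGS-numbered genes, described below, were rare. The question was whether other RGS genes stood higher where Rgs16 was lower.

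Regulators of G protein signalling (RGS) bind the active alpha subunit of a heterotrimeric G protein and speed its hydrolysis of GTP, which shortens the signal from the receptor. Most act on the Gi and Gq classes, and they are grouped into the R4, R7, R12 and RZ subfamilies by sequence. In mouse liver Rgs16 is known as a gene of periportal hepatocytes whose transcript follows feeding and fasting, and it is a target of the glucose-sensing factor ChREBP.

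Liver RNA was sequenced in 12 samples, 4 in each of 3 groups. The shRgs16, shG0s2 and shLacZ groups were wild-type C57BL/6J mice of 8 weeks given adenovirus by tail vein at 0.1 OD, with a hairpin against Rgs16, against G0s2 (which encodes an inhibitor of adipose triglyceride lipase) or against bacterial lacZ. Livers were collected 12 days later at ZT12, after 6 h of daytime food withdrawal. All groups, the shLacZ controls included, carried virus, and no uninjected liver was analysed here. Nothing in the labels says that each replicate is its own animal; a p-value here reflects sample-to-sample spread only, and that spread may be technical.

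Total counts were 24855297 to 27170419 in shRgs16, 18458222 to 26031003 in shG0s2 and 25636445 to 26472189 in shLacZ. Levels of 1 gene across samples are in CPM (counts divided by the library's scaled total), scaled by TMM, a method that assumes most genes do not differ, and levels of different genes are compared in TPM, which corrects for transcript length. A gene was called higher or lower at an adjusted p under 0.05 in edgeR's quasi-likelihood test. Scaling matters for these genes: with library size alone the median gene moved by 0.30 on the log2 scale in shRgs16 against shLacZ, by 0.49 in shG0s2 against shLacZ and by -0.20 in shRgs16 against shG0s2. G0s2 averaged 37.2 ± 10.1 CPM in shG0s2 and 73.7 ± 9.80 CPM in shLacZ (SD, n = 4 each), a log2 fold change of -0.98 (adjusted p 0.00301), which with library size alone was -0.48 (adjusted p 0.0553).

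Rgs16 lies on chromosome 1 at 153740349 to 153745468, plus strand (GRCm38, GENCODE M21). It had 14.4, 19.7, 37.4 and 33.3 CPM in the shRgs16 samples, 71.3, 59.0, 43.9 and 62.2 CPM in the shG0s2 samples, and 105, 212, 153 and 126 CPM in the shLacZ samples. The 3 groups did not overlap: every shRgs16 sample lay below every shG0s2 sample, and every shG0s2 sample below every shLacZ sample. Against shLacZ, Rgs16 fell by 2.51 on the log2 scale in shRgs16 (SE 0.378, 95% interval -3.42 to -1.61, adjusted p 0.00172) and by 1.32 in shG0s2 (SE 0.244, 95% interval -1.90 to -0.75, adjusted p 0.00236). Between the knockdowns, shRgs16 minus shG0s2, the difference was -1.18 (SE 0.329, 95% interval -1.92 to -0.44, adjusted p 0.0169). The fall in shG0s2 was smaller with other scalings, -0.83 with library size alone (adjusted p 0.0201) and -0.59 in limma on log2(TPM + 0.1) (adjusted p 0.0429).

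The hairpin sequences were not used here. The longest run of bases that the Rgs16 transcripts share exactly with another member is 23 bases, with Rgs3, then 20 bases with Rgs5, and 10 to 14 bases with the other members. With G0s2 transcripts it is 12 bases. A gene annotated antisense to Rgs16, Gm28513, had 0 to 6 counts in a sample, and the strand setting of the counting is not given in the sources used here.

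The sequences before the starts of Rgs16 and Rgs2 are shown because Rgs16 is the gene that was knocked down and Rgs2 had the smallest adjusted p among the members that rose. Each is the 250 bases upstream of the RefSeq start, read on the gene's strand, in GRCm38.p6, at chr1:153740103-153740352 (plus strand) for Rgs16 and chr1:144004150-144004399 (minus strand) for Rgs2. Capitals mark CCAAT boxes and GC boxes (GGGCGG) found on either strand. Rgs16 has 1 CCAAT box and 2 GC boxes, which overlap each other, and Rgs2 has 1 CCAAT box and 4 GC boxes.
Rgs16: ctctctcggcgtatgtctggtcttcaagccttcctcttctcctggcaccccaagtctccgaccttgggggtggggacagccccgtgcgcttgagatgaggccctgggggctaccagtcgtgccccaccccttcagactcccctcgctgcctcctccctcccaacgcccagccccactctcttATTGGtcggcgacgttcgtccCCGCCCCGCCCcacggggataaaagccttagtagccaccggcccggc
Rgs2: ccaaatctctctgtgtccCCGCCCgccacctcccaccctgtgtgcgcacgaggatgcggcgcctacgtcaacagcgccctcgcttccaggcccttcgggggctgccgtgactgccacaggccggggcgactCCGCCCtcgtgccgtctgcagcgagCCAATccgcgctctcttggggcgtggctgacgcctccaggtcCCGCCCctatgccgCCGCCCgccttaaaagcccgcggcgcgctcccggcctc
Of the 10 members, 8 matched a window in that table, and 6 of the 8 held a GC box (Rgs16, Rgs2, Rgs3, Rgs10, Rgs12 and Rgs19) against 32.7% of all 32851 windows. CCAAT was in 4 of the 8 windows (Rgs16, Rgs2, Rgs4 and Rgs5) against 33.8% of all windows. The E-box CACGTG, the CRE TGACGTCA and the D-box TTATGTAA, searched on both strands, were in 0 of the 8 windows, against 6.02%, 1.55% and 0.819% of all windows. These matches describe letters in the windows, and binding was not measured.

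**Figure D1:**
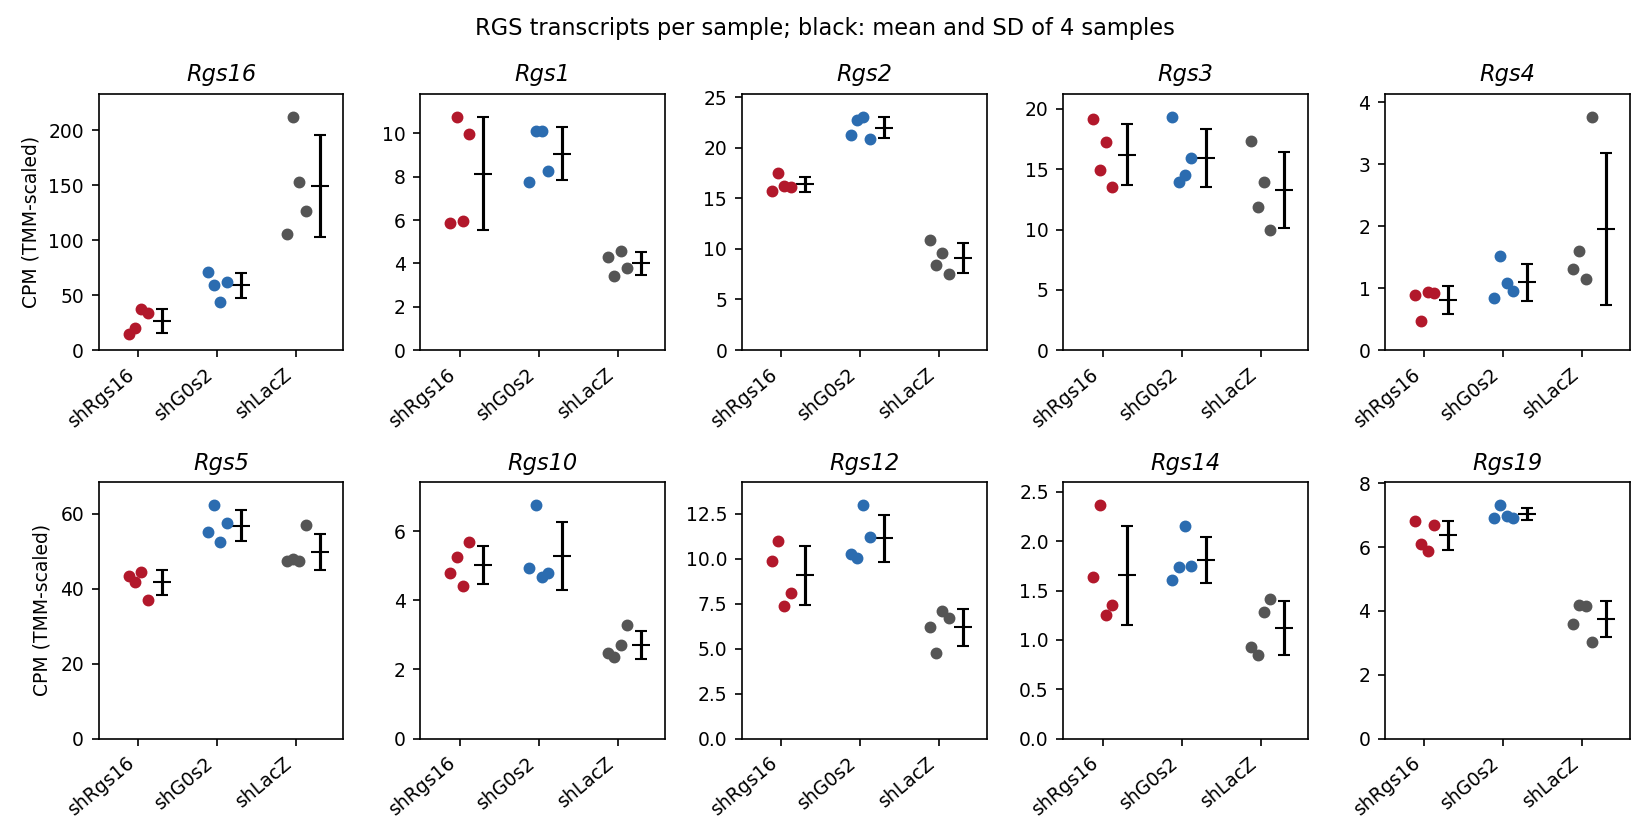
Level of each of the 10 RGS genes in every sample, in CPM scaled by TMM over all 12 samples (linear axis from 0, 1 panel a gene). Points are samples and black marks are means with SD, with shRgs16, shG0s2 and shLacZ from left to right: Rgs16 separates into 3 steps, while Rgs1, Rgs2, Rgs10, Rgs12 and Rgs19 lie above shLacZ in both knockdowns. The share of all genes whose samples separate in these ways was not counted.

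Of the 10 members, 5 were higher in shRgs16 than in shLacZ (Rgs1, Rgs2, Rgs10, Rgs12 and Rgs19), 3 were lower (Rgs16 itself, Rgs4 and Rgs5) and 2 did not pass the test (Rgs3 and Rgs14). Of all 15324 genes tested, 49.1% were called, 24.6% as higher and 24.5% as lower. The median log2 fold change of the 10 members was 0.56, against 0.01 over all genes. In shG0s2 against shLacZ, 7 members were higher (Rgs1, Rgs2, Rgs5, Rgs10, Rgs12, Rgs14 and Rgs19), 1 was lower (Rgs16) and 2 did not pass (Rgs3 and Rgs4), where 60.5% of 15592 genes were called, 31.3% as higher and 29.2% as lower. The members' median there was 0.78, against 0.01 over all genes. With library size alone, 7 members were higher and 2 lower in shRgs16, and 8 were higher and 1 lower in shG0s2. Both comparisons use the same 4 shLacZ samples, so their values are given side by side only.

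In the R4 subfamily, Rgs2, a small RGS protein with a preference for Gq, had 15.7, 17.5, 16.3 and 16.2 CPM in shRgs16, 21.3, 22.7, 23.1 and 20.9 CPM in shG0s2, and 10.9, 8.40, 9.59 and 7.48 CPM in shLacZ. No groups overlapped, and the shRgs16 samples lay between the other two. Rgs2 rose by 0.85 on the log2 scale in shRgs16 (SE 0.110, 95% interval 0.61 to 1.09, adjusted p 7.0e-05) and by 1.28 in shG0s2 (SE 0.106, adjusted p 9.9e-07). Rgs2 lies on chromosome 1 at 143999338 to 144004161, minus strand, and Rgs1, a regulator known from B and T lymphocytes, lies near it at 144242296 to 144249242, on the same strand. Rgs1 had 5.85, 10.8, 5.95 and 9.98 CPM in shRgs16, 7.77, 10.1, 10.1 and 8.26 CPM in shG0s2, and 4.28, 3.40, 4.55 and 3.77 CPM in shLacZ. Each knockdown lay above shLacZ, and the knockdowns overlapped each other. The log2 fold change of Rgs1 was 1.02 in shRgs16 (SE 0.217, 95% interval 0.55 to 1.50, adjusted p 0.00244) and 1.19 in shG0s2 (SE 0.138, adjusted p 1.44e-05).

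Rgs5, a marker of pericytes, and Rgs4, studied mainly in brain and heart, lie next to each other on chromosome 1 (169655501 to 169695813, plus strand, and 169741477 to 169747642, minus strand). Rgs5 had 43.3, 41.8, 44.5 and 37.1 CPM in shRgs16, 55.1, 62.3, 52.4 and 57.6 CPM in shG0s2, and 47.3, 47.9, 47.4 and 57.1 CPM in shLacZ. The shRgs16 samples were below both other groups, and shG0s2 overlapped shLacZ. Rgs5 fell by 0.26 on the log2 scale in shRgs16 (SE 0.0803, adjusted p 0.0172), a call lost without shRgs16 replicate 4 (-0.21, adjusted p 0.0518) and a direction that turned with library size alone (0.04, adjusted p 0.672) and in limma on log2(TPM + 0.1) (0.18, adjusted p 0.116). In shG0s2 Rgs5 rose by 0.20 (SE 0.0784, adjusted p 0.0463). That call was lost in DESeq2 (0.18, adjusted p 0.0849) and in 6 of the 8 fits that left out 1 sample, while library size alone gave 0.69 (adjusted p 1.45e-05).

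Rgs4 was scarce, with 0.892, 0.473, 0.940 and 0.915 CPM in shRgs16, 0.837, 1.52, 1.07 and 0.946 CPM in shG0s2, and 1.30, 1.60, 1.15 and 3.77 CPM in shLacZ. All shRgs16 samples were below all shLacZ samples, of which 1 stood far above the rest. Rgs4 fell by 1.28 on the log2 scale in shRgs16 (SE 0.399, adjusted p 0.0198), a call lost without shLacZ replicate 4 (-0.75, adjusted p 0.0610), without shRgs16 replicate 2 (-1.09, adjusted p 0.0582) and in limma on log2(TPM + 0.1) (-0.68, adjusted p 0.0792). In shG0s2 it was -0.84 (95% interval -1.67 to -0.0010, adjusted p 0.0774). That value passed without shLacZ replicate 3 (-1.02, adjusted p 0.0374), and in limma on log2(TPM + 0.1) it turned to 0.02 (adjusted p 0.957). Rgs3, which acts on Gi and Gq subunits, averaged 16.2 ± 2.50 CPM in shRgs16, 16.0 ± 2.42 CPM in shG0s2 and 13.3 ± 3.17 CPM in shLacZ (SD, n = 4 each), and the groups overlapped. Its log2 fold change was 0.29 in shRgs16 (95% interval -0.08 to 0.65, adjusted p 0.178) and 0.28 in shG0s2 (95% interval -0.09 to 0.64, adjusted p 0.170). Rgs3 passed in both comparisons without shLacZ replicate 1 (0.44, adjusted p 0.0281, in shRgs16, and 0.44, adjusted p 0.0208, in shG0s2), and with library size alone (0.58, adjusted p 0.0146, in shRgs16, and 0.76, adjusted p 0.00140, in shG0s2).

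The R12 members are Rgs10, a small regulator known from macrophages and microglia, and the multidomain proteins Rgs12 and Rgs14. Rgs10 had 4.78, 5.24, 4.42 and 5.69 CPM in shRgs16, 4.92, 6.75, 4.68 and 4.80 CPM in shG0s2, and 2.47, 2.36, 2.70 and 3.29 CPM in shLacZ. Both knockdowns lay above shLacZ and overlapped each other. Rgs10 rose by 0.89 on the log2 scale in shRgs16 (SE 0.156, 95% interval 0.55 to 1.23, adjusted p 0.000569) and by 0.97 in shG0s2 (adjusted p 0.000346). Rgs12 averaged 9.08 ± 1.64 CPM in shRgs16, 11.1 ± 1.33 CPM in shG0s2 and 6.19 ± 1.02 CPM in shLacZ (SD, n = 4 each), with both knockdowns above every shLacZ sample. Its log2 fold change was 0.55 in shRgs16 (SE 0.158, adjusted p 0.0122) and 0.86 in shG0s2 (adjusted p 0.000164), and in limma on log2(TPM + 0.1) the shRgs16 call was lost (0.75, adjusted p 0.213). Rgs14 averaged 1.65 ± 0.502 CPM in shRgs16, 1.81 ± 0.235 CPM in shG0s2 and 1.12 ± 0.271 CPM in shLacZ (SD, n = 4 each).

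For Rgs14 the shRgs16 samples overlapped shLacZ and the test was not passed (0.56, 95% interval -0.03 to 1.16, adjusted p 0.108). It was passed with library size alone (0.87, adjusted p 0.0202). In shG0s2 Rgs14 rose by 0.70 (SE 0.229, adjusted p 0.0185), a call lost without shLacZ replicate 2 (0.60, adjusted p 0.0529) or shG0s2 replicate 3 (0.61, adjusted p 0.0573).

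Rgs19, of the RZ subfamily and also known as GAIP, had 6.82, 6.11, 5.87 and 6.68 CPM in shRgs16, 6.93, 7.31, 6.97 and 6.91 CPM in shG0s2, and 3.58, 4.20, 4.16 and 3.01 CPM in shLacZ. The groups did not overlap, although shRgs16 and shG0s2 lay close together. Rgs19 rose by 0.77 on the log2 scale in shRgs16 (SE 0.138, 95% interval 0.46 to 1.07, adjusted p 0.000723) and by 0.92 in shG0s2 (adjusted p 6.65e-05).

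**Figure D2:**
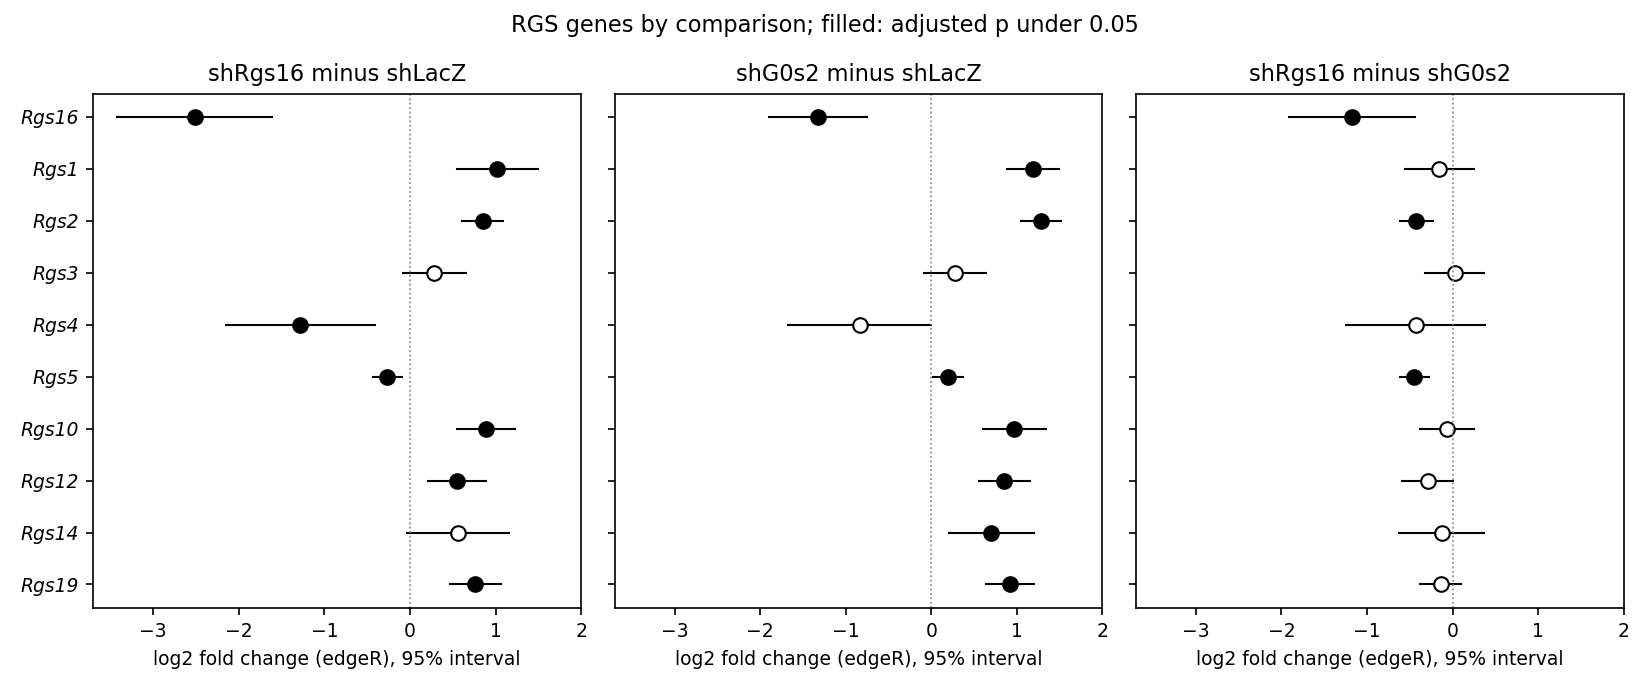
Log2 fold change of the 10 RGS genes from edgeR, with 95% intervals, for shRgs16 minus shLacZ, shG0s2 minus shLacZ and shRgs16 minus shG0s2. Filled points passed an adjusted p of 0.05 over all genes: no member lies above 0 with a filled point in shRgs16 minus shG0s2.

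The knockdowns were then compared directly. Rgs16 is lower in shRgs16 than in shG0s2, and in shRgs16 minus shG0s2 0 members were higher and 3 were lower (Rgs16, Rgs2 and Rgs5), with a median of -0.22 against -0.01 over all genes. Of 16018 genes tested 41.5% were called, 20.5% as higher and 21.0% as lower. The count of higher members was also 0 at an unadjusted p under 0.05 and in DESeq2, limma-voom and limma on log2(TPM + 0.1). Rgs2 was lower in shRgs16 by a log2 difference of -0.42 (SE 0.0925, 95% interval -0.62 to -0.23, adjusted p 0.00182). Rgs5 was lower by a difference of -0.45 (SE 0.0783, 95% interval -0.61 to -0.28, adjusted p 0.000311). The difference was -0.15 for Rgs1 (95% interval -0.55 to 0.25, adjusted p 0.546), -0.07 for Rgs10 (95% interval -0.39 to 0.25, adjusted p 0.753) and -0.14 for Rgs19 (95% interval -0.39 to 0.10, adjusted p 0.351). These intervals leave room for differences in both directions. With library size alone 5 members were lower, Rgs12 (-0.49, adjusted p 0.0145) and Rgs19 (-0.34, adjusted p 0.0422) joining the others. Rgs12 also passed without shRgs16 replicate 2 (-0.40, adjusted p 0.0426), against -0.29 (adjusted p 0.112) with all samples.

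Per transcript length, Rgs16 was the most abundant of the 21 genes numbered as RGS in shLacZ, at 67.4 ± 21.0 TPM (SD, n = 4), followed by Rgs5 at 12.2 TPM and Rgs3 at 7.60 TPM, with ranges that did not overlap. Rgs19, Rgs10, Rgs1, Rgs2 and Rgs12 followed at 4.22, 4.17, 4.06, 3.73 and 3.09 TPM, each overlapping its neighbour. In shRgs16 that order was lost: Rgs16 at 15.9 ± 6.26 TPM overlapped Rgs5 at 13.8 TPM, which overlapped Rgs1 at 12.2 TPM. In shG0s2 Rgs16 still stood clear of the rest at 43.8 ± 8.80 TPM, above Rgs5 at 22.9 TPM and Rgs1 at 16.6 TPM.

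**Figure D3:**
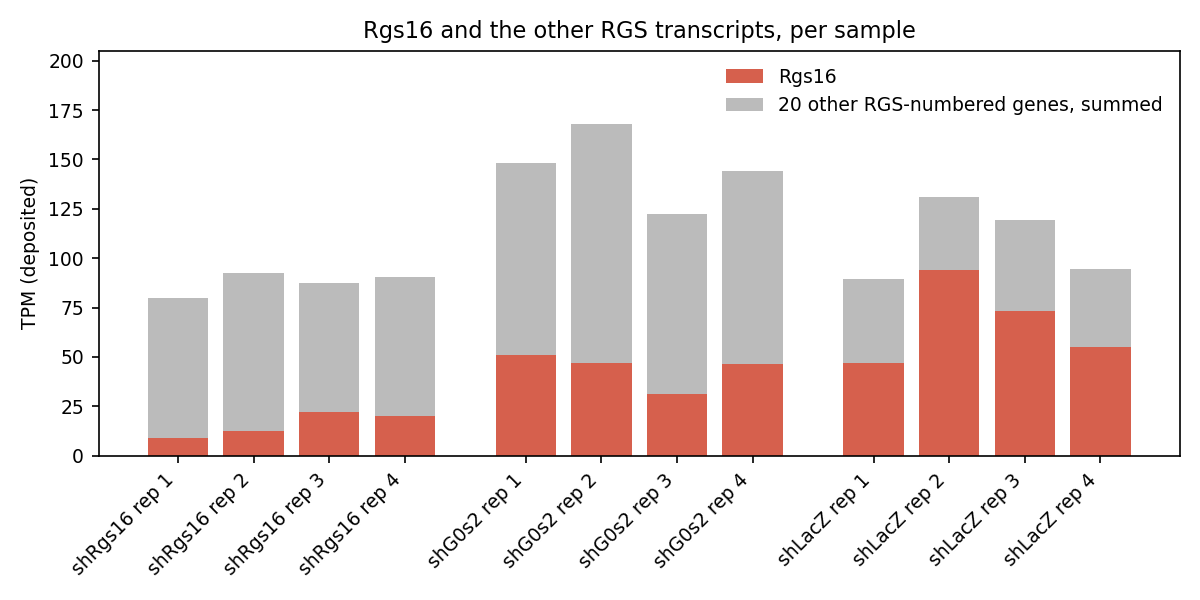
Deposited TPM of Rgs16 (red) and of the 20 other RGS-numbered genes summed (grey), stacked in 1 bar a sample on a linear axis from 0, with shRgs16 and shG0s2 left of shLacZ. Rgs16 holds on average 18.0% of the bar in shRgs16, 30.0% in shG0s2 and 61.1% in shLacZ.

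Summed over the family, Rgs16 made up 18.0% ± 6.80 of RGS TPM in shRgs16, 30.0% ± 4.11 in shG0s2 and 61.1% ± 8.08 in shLacZ (SD, n = 4 each). The 20 other genes summed to 71.8 ± 6.12 TPM in shRgs16, 102 ± 13.3 TPM in shG0s2 and 41.1 ± 3.93 TPM in shLacZ. In shRgs16 the difference of group means from shLacZ was -51.6 TPM for Rgs16 and 30.8 TPM for the sum of the others, which is 59.6% of the loss. In shG0s2 the differences were -23.6 TPM for Rgs16 and 60.7 TPM for the others, 257% of the loss. Without shLacZ replicate 2, the sample with the most Rgs16, the differences in shG0s2 were -14.7 TPM and 59.3 TPM, or 404%. These shares depend on scaling, and with TMM factors applied to the TPM they were 31.9% in shRgs16 and 84.5% in shG0s2. Within the R4 subfamily alone the gain was 34.3% of the loss in shRgs16 and 164% in shG0s2. These sums describe transcript levels over the whole tissue and were not tested.

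Other RGS-numbered genes were rare. Rgs11, of the R7 subfamily, had 0.250, 0.109, 0.313 and 0.199 CPM in shRgs16, 0.937, 0.783, 0.728 and 0.837 CPM in shG0s2, and 0.558, 0.330, 0.265 and 0.424 CPM in shLacZ. It rose by 1.06 on the log2 scale in shG0s2 against shLacZ (SE 0.305, adjusted p 0.00935), and shRgs16 minus shG0s2 was -1.90 (SE 0.342, adjusted p 0.000381). Rgs11 passed the filter only in comparisons with shG0s2, the group where it was highest, and failed it in shRgs16 against shLacZ. With no filter the edgeR values were 1.07 (adjusted p 0.0255) and -1.89 (adjusted p 0.000557). Rgs20, of the RZ subfamily, failed the filter, with 0, 0, 0 and 1 counts in shRgs16, 16, 12, 8 and 21 counts in shG0s2, and 1, 1, 0 and 0 counts in shLacZ. By group sums of 57 counts in shG0s2 and 2 counts in shLacZ its ratio was 22.6, with an interval of 5.97 to 191.0 that covers counting error only. Rgs11 and Rgs20 overlap other genes, so with no strand setting given their reads are uncertain. Rgs8, the neighbour of Rgs16, had at most 0.313 CPM in any sample, and Rgs21 had 0 counts in all 12. With TMM scaling Rgs18 and Rgs7bp did not pass the test in any comparison that kept them, with log2 fold changes of 0.77 (adjusted p 0.161) for Rgs18 and 0.28 (adjusted p 0.510) for Rgs7bp in shG0s2 against shLacZ. With library size alone Rgs18 passed in shG0s2 (1.25, adjusted p 0.0252) and Rgs7bp in shRgs16 (0.82, adjusted p 0.0458, against 0.52, adjusted p 0.202, with TMM). In limma on log2(TPM + 0.1) Rgs18 passed in shG0s2 (1.08, adjusted p 0.0114) and Rgs7bp in shRgs16 (0.69, adjusted p 0.0326) and in shG0s2 (0.70, adjusted p 0.0305). Like Rgs11, Rgs18 passed the filter only in comparisons with shG0s2, the group where it was highest, so no weight is put on its calls there. Rgs9, kept in the comparison of the knockdowns alone, differed by 0.72 (adjusted p 0.350) in shRgs16 minus shG0s2.

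Of the alpha subunits on which RGS proteins act, 8 of the 9 listed Gi and Gq class genes were tested. In shRgs16 against shLacZ 2 were higher and 1 lower (median 0.02), and in shG0s2 against shLacZ 4 were higher and 1 lower (median 0.16). Over all genes tested, 24.6% were higher and 24.5% lower in shRgs16, and 31.3% higher and 29.2% lower in shG0s2. On the log2 scale Gnai2 rose by 0.44 in shRgs16 (adjusted p 8.3e-05) and by 0.64 in shG0s2 (adjusted p 1.75e-06), and Gna15, a Gq class gene of blood cells, rose by 0.84 in shRgs16 (adjusted p 0.0232) and by 1.37 in shG0s2 (adjusted p 0.000328). The Gna15 call in shRgs16 was lost without shLacZ replicate 2 (0.80, adjusted p 0.0602) or 3 (0.79, adjusted p 0.0571), and without shRgs16 replicate 1 (0.73, adjusted p 0.0728) or 3 (0.75, adjusted p 0.0583). Gnai1 was 0.06 in shRgs16 (adjusted p 0.874) and rose by 1.71 in shG0s2 (adjusted p 3.5e-05), and shRgs16 minus shG0s2 was -1.64 (adjusted p 7.8e-05). Gna11, a Gq class gene, fell by 0.54 in shRgs16 (adjusted p 0.000125), a call lost in limma on log2(TPM + 0.1) (-0.04, adjusted p 0.743), and was -0.02 in shG0s2 (adjusted p 0.865). Gnaq was -0.01 in shRgs16 (adjusted p 0.898), and it rose by 0.25 in shG0s2 (adjusted p 0.00980). Gnao1, a Go gene, was -0.14 in shRgs16 (adjusted p 0.765) and fell by 0.97 in shG0s2 (adjusted p 0.0421). The Gnao1 call in shG0s2 was lost in DESeq2 (-0.99, adjusted p 0.0799), with library size alone (-0.49, adjusted p 0.265), on TPM and with no filter. It was also lost with a replicate block (-0.98, adjusted p 0.0744). The same held without any 1 of shLacZ replicates 2, 3 and 4 and shG0s2 replicates 2 and 4 (-1.03 to -0.72, adjusted p 0.0571 to 0.111). Gnai3 was 0.12 in shRgs16 (adjusted p 0.0931) and 0.06 in shG0s2 (adjusted p 0.421), and Gna14 was -0.08 in shRgs16 (adjusted p 0.830) and -0.22 in shG0s2 (adjusted p 0.447). Gnai3 passed in both with library size alone (0.43, adjusted p 2.28e-05, in shRgs16, and 0.55, adjusted p 6.9e-06, in shG0s2), and in shRgs16 also without shLacZ replicate 4 (0.16, adjusted p 0.0360). In shRgs16 minus shG0s2, 0 of the 8 were higher and 4 lower, against 20.5% and 21.0% of all genes, with a median of -0.22. With library size alone 4 of the 8 were higher and 1 lower in shRgs16, and 6 were higher and 0 lower in shG0s2.

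Beside the lists that follow, 24.6% of all genes were called higher and 24.5% lower in shRgs16, and 31.3% higher and 29.2% lower in shG0s2. Of 14 tested genes that carry an RGS homology domain outside the RGS numbering, 4 were higher and 3 lower in shRgs16 (median 0.14), and 4 were higher and 4 lower in shG0s2 (median -0.03). Library size alone gave 8 higher and 0 lower in shRgs16, and 9 higher and 0 lower in shG0s2. Grk2, a kinase of active receptors, rose on the log2 scale by 0.37 in shRgs16 (adjusted p 0.000187) and by 0.44 in shG0s2 (adjusted p 2.29e-05). Akap10, an anchor of protein kinase A, fell by 0.51 in shRgs16 (adjusted p 0.00044), which with library size alone was -0.22 (adjusted p 0.0822). Of 22 tested receptors that couple to Gi or Gq, 11 were higher and 6 lower in shRgs16 (median 0.39), and 11 were higher and 3 lower in shG0s2 (median 0.34). Library size alone gave 14 higher and 1 lower in shRgs16, and 16 higher and 2 lower in shG0s2. The chemokine receptor gene Ccr2, found on monocytes, rose by 1.31 in shRgs16 (adjusted p 5.34e-05) and by 1.46 in shG0s2 (adjusted p 2.21e-06). Ednrb, an endothelin receptor gene, rose by 0.65 in shRgs16 (adjusted p 0.000113) and by 1.31 in shG0s2 (adjusted p 3.66e-06). Adra1b, the alpha-1B adrenergic receptor, fell by 0.65 in shRgs16 (adjusted p 0.000109) and by 0.97 in shG0s2 (adjusted p 6.0e-06). In limma on log2(TPM + 0.1) the shRgs16 value was -0.20 (adjusted p 0.0997). S1pr1, a receptor for sphingosine 1-phosphate, fell by 0.43 in shRgs16 (adjusted p 0.00036), a call lost with library size alone (-0.13, adjusted p 0.173). Of 8 other regulators of G proteins and receptors, such as the arrestins, 5 were higher and 1 lower in each knockdown against shLacZ (median 0.48 in shRgs16 and 0.52 in shG0s2), while library size alone gave 5 and 0 in shRgs16 and 8 and 0 in shG0s2. The arrestin gene Arrb2 rose by 0.69 in shRgs16 (adjusted p 1.04e-05) and by 0.66 in shG0s2 (adjusted p 7.2e-06). Ric8a, a chaperone of alpha subunits, fell by 0.41 in shRgs16 (adjusted p 0.000215), a call lost with library size alone (-0.11, adjusted p 0.168). In shG0s2 Ric8a fell by 0.25 (adjusted p 0.0184), which with library size alone turned to 0.24 (adjusted p 0.0179). Of 22 genes listed as ChREBP targets or partners, a list that leaves out Rgs16, 6 were higher and 7 lower in shRgs16 (median -0.11), and 8 were higher and 5 lower in shG0s2 (median 0.18), against 9 and 4 in shRgs16, and 17 and 2 in shG0s2, with library size alone. Gpd1, which links glycolysis to glycerol phosphate, fell by 1.07 in shRgs16 (adjusted p 6.1e-06), and Txnip, a glucose-induced gene, rose by 0.73 in shRgs16 (adjusted p 0.000162) and by 0.63 in shG0s2 (adjusted p 0.000583).

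**Figure D4:**
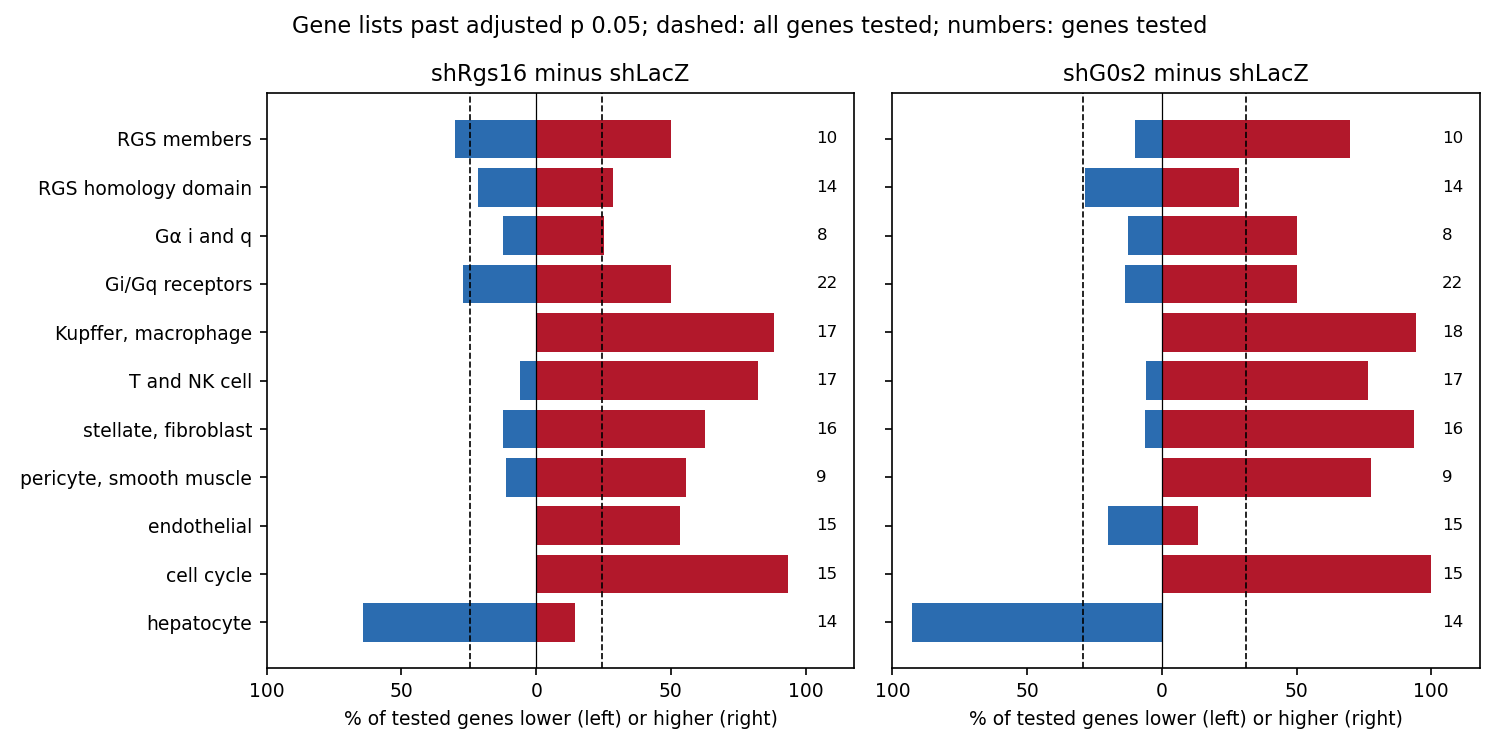
Genes called higher (right of 0) and lower (left of 0) in each list, as a percentage of the list's tested genes, for shRgs16 and shG0s2 against shLacZ, with dashed lines at the share of all tested genes and the number tested at the right of each row. The macrophage, T and NK cell and cell cycle lists lie almost wholly on the higher side in both knockdowns.

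Marker lists of cell types were set beside the RGS genes, and the lists did not all move the same way. Of all genes tested, 24.6% were called higher in shRgs16 against shLacZ and 31.3% in shG0s2 against shLacZ. The tissue is whole liver, where more cells of a type and more RNA per cell cannot be told apart. Of Kupffer cell and macrophage markers, 15 of 17 were higher in shRgs16 and 17 of 18 in shG0s2 (medians 0.71 and 0.81), 0 were lower, and their summed level was 1680 to 1941 CPM in shRgs16, 1840 to 2166 CPM in shG0s2 and 1133 to 1246 CPM in shLacZ. Of T and NK cell markers, 14 of 17 were higher and 1 lower in shRgs16, and 13 were higher and 1 lower in shG0s2 (medians 1.20 and 1.18). They summed to 60.0 to 77.6 CPM in shRgs16, 62.6 to 68.5 CPM in shG0s2 and 22.3 to 45.8 CPM in shLacZ. Rgs1, Rgs2, Rgs10, Rgs12 and Rgs19 were called higher in the same 2 comparisons, which share their shLacZ samples. The share of all genes called higher in both was not counted here. The part of these cells in the values of the 5 RGS genes was not tested. In shRgs16 minus shG0s2, 0 of 18 macrophage markers were higher and 4 lower, and 3 of 17 T and NK cell markers were higher and 2 lower. Over all genes tested there, 20.5% were called higher and 21.0% lower. These counts depend on scaling. Library size alone gave 0 higher and 14 lower for macrophage markers, and 3 and 4 for T and NK cell markers. That setting called 1568 of all 16018 genes higher and 6054 lower.

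Pericyte and smooth muscle markers, set beside Rgs5 and Rgs4, summed to 93.5 to 145 CPM in shRgs16, 146 to 186.5 CPM in shG0s2 and 55.7 to 82.0 CPM in shLacZ, with 5 of 9 higher and 1 lower in shRgs16 and 7 of 9 higher in shG0s2 (medians 1.25 and 0.89). The members of the list did not move alike, as a few named after their values were seen show. The contractile genes Acta2 and Tagln rose by 2.98 (adjusted p 0.00160) and 2.36 (adjusted p 8.4e-05) on the log2 scale in shRgs16. The pericyte channel gene Abcc9 fell by 0.24 in shRgs16 (adjusted p 0.0369) and rose by 0.41 in shG0s2 (adjusted p 0.00312), and Notch3 was -0.01 in shRgs16 (adjusted p 0.983) and rose by 2.43 in shG0s2 (adjusted p 0.00139). With library size alone 5 of the 9 were higher and 0 lower in shRgs16, so the lower call of Abcc9 was lost. In shG0s2 that setting gave 9 higher and 0 lower. In shRgs16 minus shG0s2, where Rgs5 was lower, 4 of 11 of these markers were higher and 3 lower. Over all genes 20.5% were higher and 21.0% lower, and the markers' median was 0.46, against -0.01 over all genes. With library size alone 0 of the 11 were higher and 3 lower, with a median of 0.26, against -0.21 over all genes. The part of these markers in the values of Rgs5 was not tested. Stellate cell and fibroblast markers were higher for 10 and lower for 2 of 16 in shRgs16, and higher for 15 and lower for 1 in shG0s2, with sums of 566 to 965 CPM in shRgs16, 1336 to 1646 CPM in shG0s2 and 367 to 504 CPM in shLacZ. In shRgs16 minus shG0s2, 0 of these 16 were higher and 11 lower (median -0.92), against 20.5% and 21.0% of all genes. Library size alone gave 0 and 16 there. The part of stellate cell and fibroblast markers in the values of Rgs5 was not tested either. Endothelial markers were higher for 8 and lower for 0 of 15 in shRgs16, and higher for 2 and lower for 3 in shG0s2, against 13 and 0 in shRgs16, and 11 and 1 in shG0s2, with library size alone. Hepatocyte markers, which at 42320 to 83360 CPM in sum show liver in every sample, were higher for 2 and lower for 9 of 14 in shRgs16, and higher for 0 and lower for 13 in shG0s2, against 4 and 5 in shRgs16, and 1 and 9 in shG0s2, with library size alone. Cell cycle genes were higher for 14 of 15 in shRgs16 and for all 15 in shG0s2 (medians 1.38 and 2.12). B cell and plasma cell markers were higher for 3 of 10 in each knockdown, neutrophil and platelet markers for 2 of 8 in shRgs16 and 4 in shG0s2, and cholangiocyte markers for 2 of 7 in shRgs16 and 3 in shG0s2. Over all genes tested, 24.6% were called higher and 24.5% lower in shRgs16, and 31.3% higher and 29.2% lower in shG0s2. Library size alone gave 7 in shRgs16 and 5 in shG0s2 for B cell and plasma cell markers, 3 and 6 for neutrophil and platelet markers, and 3 and 6 for cholangiocyte markers. No marker of these lists was at 0 in all 12 samples.

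The genes whose level followed Rgs16 most closely over the 12 samples, among 8615 genes with a mean of at least 10 CPM, were Hnmt, Cnot2, Alg10b, Timm21 and Atad1. Pearson's r on log2 CPM was 0.974 for Hnmt, which encodes histamine N-methyltransferase, 0.974 for Cnot2, a subunit of the CCR4-NOT deadenylase, 0.962 for Alg10b, 0.960 for Timm21 and 0.955 for Atad1. The samples form 3 groups, so r mostly follows group means, and no test was made. Hnmt averaged 18.2 CPM in shRgs16, 27.8 CPM in shG0s2 and 43.3 CPM in shLacZ. With library size alone r was 0.950 for Hnmt, 0.342 for Cnot2, 0.576 for Alg10b, 0.675 for Timm21 and 0.659 for Atad1. On the same measure r with Rgs16 was -0.626 for Rgs2, -0.503 for Rgs3 and 0.437 for Rgs5, the other members with a mean of at least 10 CPM.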

How the data were processed

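Estimated counts per gene and sample were deposited by the authors in 2 tables, 1 for each knockdown with shLacZ, per the file headers. TPM is deposited beside them, as are the authors' fold change (a ratio and its log2) and the p-value with its adjusted form. The shLacZ columns were identical in both tables (0 of 8 differed), so the 12 samples were joined. Per the submitters' processing notes Bowtie2 2.2.9, SAMtools 1.9, fastp 0.19.5, GATK 3.8 and DESeq2 were used. Their roles, the genome build and the counting settings were not given in the sources used here. Where counting splits reads among overlapping or similar genes, levels of those genes are uncertain.

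Counts were rounded to whole numbers, filtered (filterByExpr), scaled by TMM and tested in edgeR 4.0.16 (R 4.3.3) by its two-sided quasi-likelihood F test, with Benjamini-Hochberg adjustment over all genes. Each knockdown was compared with shLacZ in its 8 samples, and the knockdowns with each other in all 12. The test script was checked on simulated counts. Alternatives were DESeq2 1.42.0, limma-voom and limma 3.58.1 on log2(TPM + 0.1), scaling by library size alone or by relative log expression, filters of 1 CPM in 4 samples or none, all samples or only 2 groups in the fit, a replicate block, and each sample left out. Pearson's r with library size alone was added after the data were seen. Replicate numbers came from the sample titles.

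The genes named are all 10 members, other RGS-numbered genes that passed the filter, the tested Gi and Gq alpha subunits, up to 4 genes of each signalling list with the smallest p in shRgs16 against shLacZ, and the 5 genes most like Rgs16 by Pearson's r; marker lists are given as counts. Rgs8, Rgs13, Rgs20, Rgs21 and the pericyte and smooth muscle markers given by name were named after their values were seen. Members and lists were chosen with earlier results of these data known. Coordinates are from GENCODE M21 (GRCm38) and upstream sequences from RefSeq (GRCm38.p6).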

Additional observations from a re-analysis of the deposited data

Results flagged for a closer look

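The 10 members and the 13 other RGS and RGS-binding genes gave 62 groups of 4 samples with any spread, and in 6 of them a single sample stood far from its group. Chance marks about 1 in 20 such groups, or 3.1 of 62. They were Rgs4 in shRgs16 replicate 2, at 0.473 CPM, Rgs5 in shLacZ replicate 4, at 57.1 CPM, Rgs10 in shG0s2 replicate 2, at 6.75 CPM, and Rgs19 in shG0s2 replicate 2, at 7.31 CPM. The last were Rgs13 in shLacZ replicate 4, at 0.0471 CPM, and Rgs20 in shRgs16 replicate 4, at 0.0398 CPM, each of them 1 count where the rest of the group had 0. The shG0s2 replicate 2 library that appears for Rgs10 and Rgs19 is the one with the fewest counts (18458222).

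For 4 RGS genes the knockdowns differed from each other when shRgs16 was tested against shG0s2. The log2 difference, shRgs16 minus shG0s2, was -1.18 for Rgs16 (adjusted p 0.0169), -0.42 for Rgs2 (adjusted p 0.00182), -0.45 for Rgs5 (adjusted p 0.000311) and -1.90 for Rgs11 (adjusted p 0.000381). Rgs11 passed the filter only in comparisons with shG0s2, the group where it was highest.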

How the results depend on the processing

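Scaling moved the results most. Of all genes, library size alone called 7686 higher and 1279 lower in shRgs16 against shLacZ, 10067 and 1246 in shG0s2 against shLacZ, and 1568 and 6054 in shRgs16 against shG0s2; limma on log2(TPM + 0.1) called 8893 and 757, 11622 and 721, and 1139 and 6458. The members called lower became 1 in shRgs16 against shLacZ on TPM and 5 in shRgs16 against shG0s2 with library size alone. Signs turned, with a call under at least 1 of the settings, in shRgs16 against shLacZ for Rgs5 (0.175 on TPM, 0.0411 with library size alone), Gnaq (0.57 and 0.29), S1pr1 (0.0052 on TPM) and Ric8a (0.0147 on TPM). In shG0s2 against shLacZ they turned for Gna11 (0.75 on TPM, 0.47 with library size alone), S1pr1 (0.55 and 0.35), Ric8a (0.37 and 0.24) and Akap10 (0.49 on TPM). In shRgs16 against shG0s2 they turned on TPM for Gnai3 (-0.20) and Arrb2 (-0.37). Among members, signs also turned on TPM with no call under either setting for Rgs4 in shG0s2 against shLacZ (0.02) and Rgs3 in shRgs16 against shG0s2 (-0.22). Leaving out 1 sample gave 1 to 2 lower members in shG0s2 against shLacZ, 2 without shLacZ replicate 3. Rgs16 passed in all 3 comparisons under every alternative, with log2 fold changes of -2.74 to -2.30, -1.45 to -1.10 and -1.40 to -0.96 when 1 sample was left out.

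Samples that share a replicate number had correlations of -0.127 to 0.219, over 0.1 in 4 of 12 pairs. A sample's best match among the 4 samples of another group had its own number in 10 of 24 cases. Whether the numbers mark pairs was not settled. With the replicate block 6 members were higher in shRgs16 against shLacZ, 8 in shG0s2 against shLacZ and 0 in shRgs16 against shG0s2, Rgs3 joining at 0.30 (adjusted p 0.0213) in shRgs16 and 0.29 (adjusted p 0.0445) in shG0s2. Depth limits the rare RGS genes most: Rgs8, Rgs9, Rgs11, Rgs18 and Rgs20 had under 30 counts in every sample.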
